A study of Homo sapiens with 6 samples.

Results

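Genes of cholesterol synthesis, sensing, uptake, storage and efflux were examined in Huh7 cells, an established human hepatoma line, after delivery of the circular RNA hsa_circ_0098181. The set was 34 gene symbols, chosen with earlier results of these data known, and all 34 were found among the 50868 genes of the expression table. 3 libraries came from cells transfected with the hsa_circ_0098181 plasmid and 3 from cells that received the control plasmid, and RNA was taken 48 hours after transfection in both groups. Both groups were the same line in serum-containing medium and received the same lipid transfection reagent, and delivery was transient, with no selection of transfected cells described for these libraries. The labels did not say whether replicates were separate cultures, so p-values measure the spread between these libraries, which may be technical.

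Cholesterol is built from acetyl-CoA. The mevalonate steps make isoprenoid units, these are joined to squalene, squalene is closed to lanosterol, and a series of reductions, demethylations and isomerizations turns lanosterol into cholesterol. In the membrane of the endoplasmic reticulum, SCAP carries the SREBF2 precursor towards the Golgi when sterols are low, and the INSIG proteins hold it back when sterols are high. The released SREBF2 fragment switches on most synthesis enzymes together. The liver is a major site of this synthesis, and hepatoma cells retain the pathway.

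Library totals ran from 11130902 to 14138262 counts. SOX5, the host gene of the circle, lay between 1905 and 2396 CPM (counts scaled to a common library size) with overexpression and between 31.3 and 41.8 CPM with the control plasmid, which matched the labels. Reads from the plasmid and from the SOX5 locus cannot be told apart in these counts. All 8 hepatoma markers, AFP and ALB among them, were detected in every library, and their summed level ran from 23366 to 24076 CPM with overexpression and from 21148 to 24578 CPM in controls. Summed levels of 3 leukocyte markers ran from 10.3 to 14.6 CPM with overexpression and 9.88 to 15.9 CPM in controls, and those of 3 fibroblast markers from 12.1 to 14.7 CPM and 11.1 to 14.7 CPM. Of 3 endothelial markers, CDH5 was at 0 and VWF at 0 or 1 count in every library, while PECAM1 ran from 46.9 to 59.1 CPM. Control replicate 1 stood apart: mitochondrial genes held 9.29% of its counts against 6.32% to 7.04% in the other libraries, and it was the lowest of the 6 libraries for 26.5% of all genes tested and the highest for 26.6%.

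Most of the pathway lay well above the typical gene in Huh7 cells. 33 of the 34 genes passed the filter on low counts, and 30 of these lay above the median of all tested genes when the level was taken per kilobase of exon, the scale on which different genes are ordered here. That level was a median of 24.7 CPM per kilobase for the 33 genes and 4.76 for the 14979 tested genes with a known length. MSMO1, a sterol demethylating oxidase, stood first at 160.1 CPM per kilobase over the 6 libraries (range 147 to 178), followed by HMGCS1, the synthase that makes HMG-CoA, at 131 (123 to 139). CYP51A1, the lanosterol demethylase (range 86.1 to 100.3), and DHCR7, a last-step reductase (mean 92.4), came next with overlapping ranges. From ACAT2 (66.2) down to LSS (24.7) each gene overlapped its neighbour in the order, through FDPS, IDI1, EBP, SQLE, INSIG1, SCARB1, SREBF2, MVD, LBR, NSDHL and FDFT1. The lowest tested genes were LCAT (3.93), MYLIP (4.53), HSD17B7 (4.61), INSIG2 (4.99) and TM7SF2 (5.30). The deposited FPKM values, also scaled by length, gave another order in places. Their means over the 6 libraries were 1.51 for TM7SF2, 2.01 for LCAT, 2.17 for INSIG2, 3.38 for HSD17B7 and 3.93 for MYLIP. On that scale ACAT2 (57.1) lay above DHCR7 (50.8), and FDFT1 was at 8.3. TM7SF2 and LBR both encode sterol C14 reductases, and LBR lay at 29.9 CPM per kilobase. ABCG1, a sterol exporter, was nearly silent with 12, 4 and 6 counts in the overexpression libraries and 3, 7 and 7 counts in the control libraries (replicates 1 to 3 in order, here and throughout), and it was not tested.

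**Figure D1:**
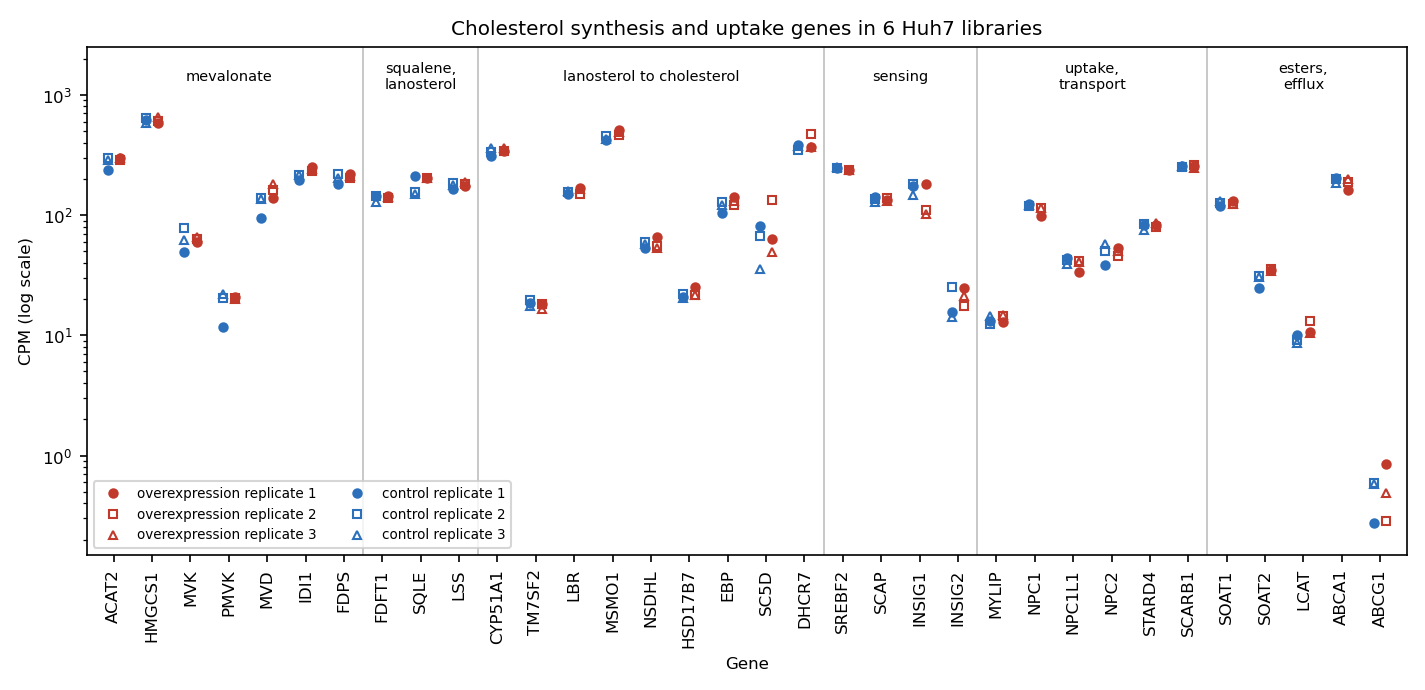
Level of each of the 34 genes in every library (CPM, log scale; colours give the group, symbols the replicate), ordered by role. For most genes the control and overexpression libraries interleave. SC5D, INSIG2, PMVK and INSIG1 spread widely within groups, and ABCG1 lies below 1 CPM.

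Compared with control cells, none of the 33 tested genes passed edgeR's quasi-likelihood test after Benjamini-Hochberg adjustment, with adjusted p-values of 0.797 or above. DESeq2 and limma also called 0 of them, with 2 and 4 members at an unadjusted p under 0.05. In bulk RNA, fewer cells that express a gene and less RNA per cell cannot be told apart. Over all 15055 genes, 0.0266% were called higher and 0.0133% lower. At an unadjusted p under 0.05 there were 3 members, all higher with overexpression (IDI1, SOAT2 and MVD), where 2.42% of all genes were higher and 3.08% lower at that level. The 3 overexpression values lay above the 3 control values for 5 members, or 15.2%, against 6.4% of all genes. They lay below the control values for 2 members, or 6.06%, against 6.5% of all genes. The median log2 fold change of the 33 genes was 0.046 and that of all genes was 0.0023. A positive value was found for 25 of the 33 genes, and for 18 of 33, with a median of 0.019, without control replicate 1.

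**Figure D2:**
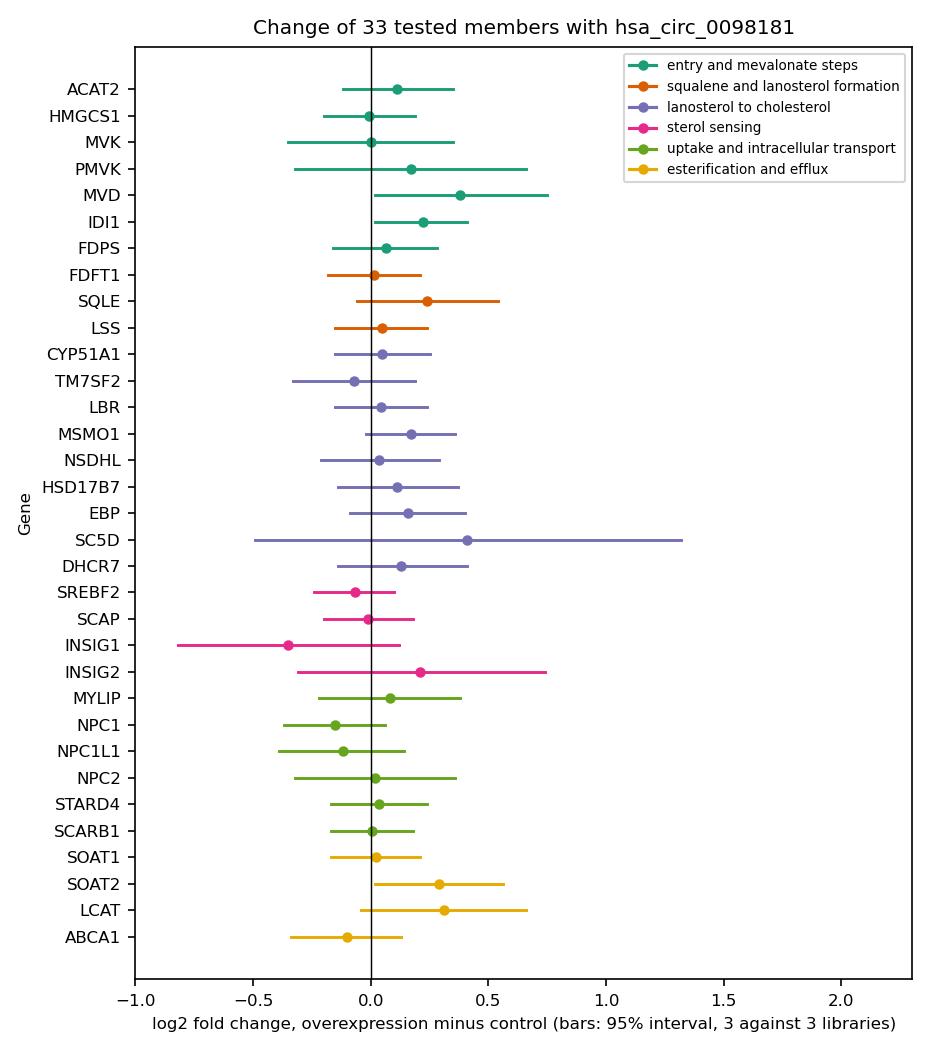
Log2 fold change (overexpression minus control) of the 33 tested genes with 95% intervals, coloured by role. Intervals for IDI1, MVD and SOAT2 lie just above 0 before adjustment, and those of the other 30 genes include 0.

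Most of the biosynthetic enzymes were placed slightly above control. Of the 19 enzymes, 17 had a positive log2 fold change and 2 a negative one, with a median of 0.11, while 50.5% of all tested genes were positive. Summed over the 19 enzymes, the level reached 3796, 3878 and 3856 CPM with overexpression against 3447, 3692 and 3544 CPM with the control plasmid. The sums of the groups did not overlap, and the means of 3844 ± 42.2 and 3561 ± 123 CPM (SD, n = 3 each) differed by 7.94%. In the sum of overexpression replicate 2, DHCR7 gave 476 CPM, against 366 and 365 CPM in the other overexpression libraries. SC5D gave 133 CPM there, against 63.1 and 48.9 CPM. The sum was not recomputed without these genes. The 19 enzymes held 0.379% to 0.392% of all counts with overexpression and 0.336% to 0.369% in controls. No test was made of this sum, since the members were chosen with earlier results of these data known. Control replicate 1 was the lowest library for 11 of the 19 enzymes, or 57.9%. Without it, 11 of 19 enzymes had a positive log2 fold change and their median was 0.023, although both remaining control sums still lay under the lowest overexpression sum. The part of the mitochondrial share of control replicate 1 in this difference was not tested.

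**Figure D3:**
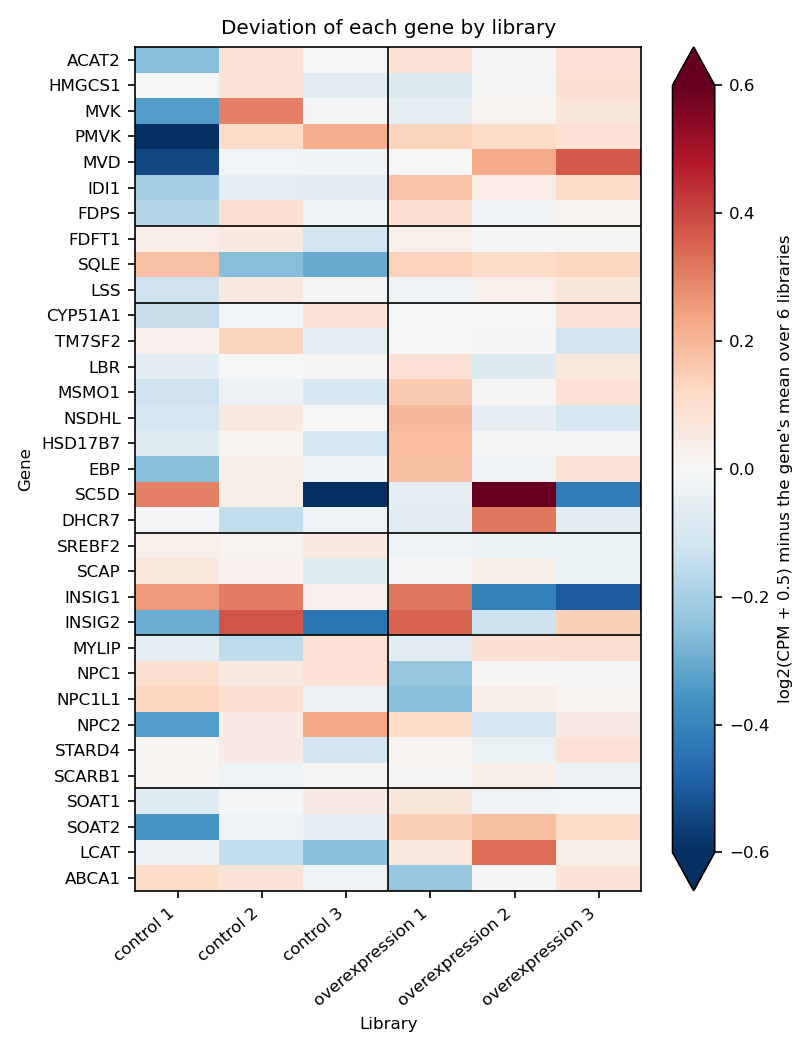
Deviation of each tested gene's log2(CPM + 0.5) from its own mean over the 6 libraries, by library (red higher, blue lower; lines separate the roles and the groups). Control replicate 1 is low for MVD, PMVK, MVK, ACAT2, IDI1, FDPS, EBP, INSIG2, NPC2 and SOAT2.

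Among the 7 mevalonate genes, 6 were placed higher and 1 lower, with a median log2 fold change of 0.11. Without control replicate 1 the median was -0.0033, and HMGCS1, MVK, PMVK and FDPS were below 0. MVD, the decarboxylase that makes isopentenyl diphosphate (ENSG00000167508, hg38 chromosome 16 at 88651935 to 88663161, minus strand), was at 139, 163 and 180.2 CPM with overexpression. Its control values were 95.3, 138 and 137 CPM. The groups just missed each other, and control replicate 1 was far below the rest. The log2 fold change came to 0.38 (standard error 0.16, unadjusted p 0.0423, edgeR adjusted p 0.797) and to 0.23 without control replicate 1. The exact two-sided permutation test of log2 CPM gave p = 0.1, the smallest that 3 against 3 values allow.

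IDI1, the isomerase of the next step (ENSG00000067064, chromosome 10 at 1039908 to 1049170, minus strand), was at 253, 232 and 243 CPM with overexpression. Control cells gave 196, 216 and 214 CPM. All overexpression values were above all control values, with means of 243 ± 10.8 and 209 ± 11.4 CPM (SD, n = 3 each). The log2 fold change came to 0.22 (standard error 0.08, unadjusted p 0.0314, edgeR adjusted p 0.797), and leave-one-out fits gave 0.18 to 0.25.

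HMGCS1 (ENSG00000112972, chromosome 5 at 43289395 to 43313512, minus strand) was the most abundant gene of this branch. It was at 578, 609 and 653 CPM with overexpression and at 615, 647 and 585 CPM with the control plasmid. The groups overlapped throughout, and the 95% interval of the log2 fold change ran from -0.20 to 0.19. PMVK, the second mevalonate kinase, was at 20.7, 20.4 and 20.1 CPM against 11.7, 20.5 and 22.1 CPM. Its positive log2 fold change of 0.17 came with one low library, control replicate 1, and was -0.058 without it. ACAT2 (0.11), FDPS (0.063) and MVK (0.0010) had overlapping groups. MVK, the first mevalonate kinase, ranged from 49.6 to 77.6 CPM among controls alone. In GENCODE 29, exons of ACAT2 share 1458 bases with SOD2-OT1, 1141 bases with SOD2 and 397 bases with TCP1, all on the opposite strand, and those of MVK share 306 bases with MMAB on the opposite strand. Whether the counting used strand is not stated, so reads in these stretches cannot be assigned with certainty.

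All 3 genes of squalene and lanosterol formation were placed higher, with overlapping groups and a median log2 fold change of 0.046 (0.021 to 0.088 in leave-one-out fits). SQLE, the squalene epoxidase (ENSG00000104549, chromosome 8 at 124998497 to 125022283, plus strand), was at 205, 202 and 203 CPM with overexpression. Its control values were 211, 156 and 151 CPM. The overexpression libraries were nearly equal, and control replicate 1 lay above them while the other controls lay below. The log2 fold change of 0.24 (standard error 0.13, edgeR adjusted p 0.797) moved with the controls, and leaving out control replicate 1 gave 0.41 and leaving out control replicate 3 gave 0.15. FDFT1, the squalene synthase, was at 0.013 (95% interval -0.18 to 0.21) and LSS, the lanosterol synthase, at 0.046 (-0.15 to 0.24).

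Of the 9 genes that turn lanosterol into cholesterol, 8 were placed higher and 1 lower, with a median log2 fold change of 0.11. That median was 0.058 without overexpression replicate 1 and 0.070 without overexpression replicate 2. MSMO1 (ENSG00000052802, chromosome 4 at 165327623 to 165343160, plus strand) was at 515, 465 and 491 CPM with overexpression and at 424, 451 and 432 CPM with the control plasmid. The groups did not overlap, with means of 490.2 ± 25.1 and 436 ± 14.3 CPM (SD, n = 3 each). Its log2 fold change came to 0.17 (standard error 0.08, unadjusted p 0.0683, edgeR adjusted p 0.797).

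SC5D, the sterol C5 desaturase (ENSG00000109929, chromosome 11 at 121292453 to 121308694, plus strand), varied more than any other tested member. It was at 63.1, 133 and 48.9 CPM with overexpression and at 81.1, 67.2 and 35.6 CPM in controls. Within-group SD on the log2 scale was 0.682, where the median was 0.108 for the 33 genes and 0.182 for all tested genes. The log2 fold change of 0.41 had a standard error of 0.40 and turned to -0.13 without overexpression replicate 2. DHCR7 was also highest in that library, at 476 CPM against 366 and 365 CPM in the other overexpression libraries and 380.1, 345 and 375 CPM in controls. Its log2 fold change of 0.13 fell to -0.0052 without it.

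EBP (0.16), HSD17B7 (0.11), CYP51A1 (0.047), LBR (0.045), NSDHL (0.037) and TM7SF2 (-0.073), which encode the isomerase, reductases, dehydrogenase and demethylase of these steps, had overlapping groups. In GENCODE 29, 79.4% of the exon bases of CYP51A1 are shared with AC000120.2 on the same strand, a gene not analysed here. CYP51A1 also shares sequence with the processed copies CYP51A1P1 and CYP51A1P2, which held 738 and 1312 counts over the 6 libraries against 25653 for CYP51A1. HSD17B7P2 held 86 counts against 1663 for HSD17B7. The treatment of reads matching more than one gene is not given in the sources used here.

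Of the 4 sensing genes, 1 was placed higher and 3 lower, with a median log2 fold change of -0.040. Whether they differed from the enzymes was not tested. SREBF2, the transcription factor of the pathway (ENSG00000198911, chromosome 22 at 41833079 to 41907308, plus strand), was at 239, 237 and 236 CPM with overexpression and at 248, 246 and 252 CPM with the control plasmid. All overexpression values lay below all control values. The difference was small: means were 237 and 249 CPM (n = 3 each), and the log2 fold change was -0.069 (95% interval -0.24 to 0.10, edgeR adjusted p 0.852). Its within-group SD of 0.0132 on the log2 scale was the smallest among the members. SCAP, which escorts it, was at -0.011 (-0.20 to 0.18).

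INSIG1, the inducible retention protein (ENSG00000186480, chromosome 7 at 155297776 to 155310235, plus strand), was at 181, 109.9 and 103 CPM with overexpression. In controls it was at 174, 180.4 and 148 CPM. Overexpression replicates 2 and 3 lay below every control, and replicate 1 above them all. The log2 fold change came to -0.35 (standard error 0.21, unadjusted p 0.127, edgeR adjusted p 0.797). It was the most negative value among the members, and it became -0.65 without overexpression replicate 1 (unadjusted p 0.000806, edgeR adjusted p 0.748) and -0.20 without overexpression replicate 3. INSIG2, the constitutive paralog, was at 24.6, 17.6 and 21.3 CPM against 15.6, 25.1 and 14.1 CPM, with overlapping groups and a log2 fold change of 0.21 that spanned 0.055 to 0.51 in leave-one-out fits.

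**Figure D4:**
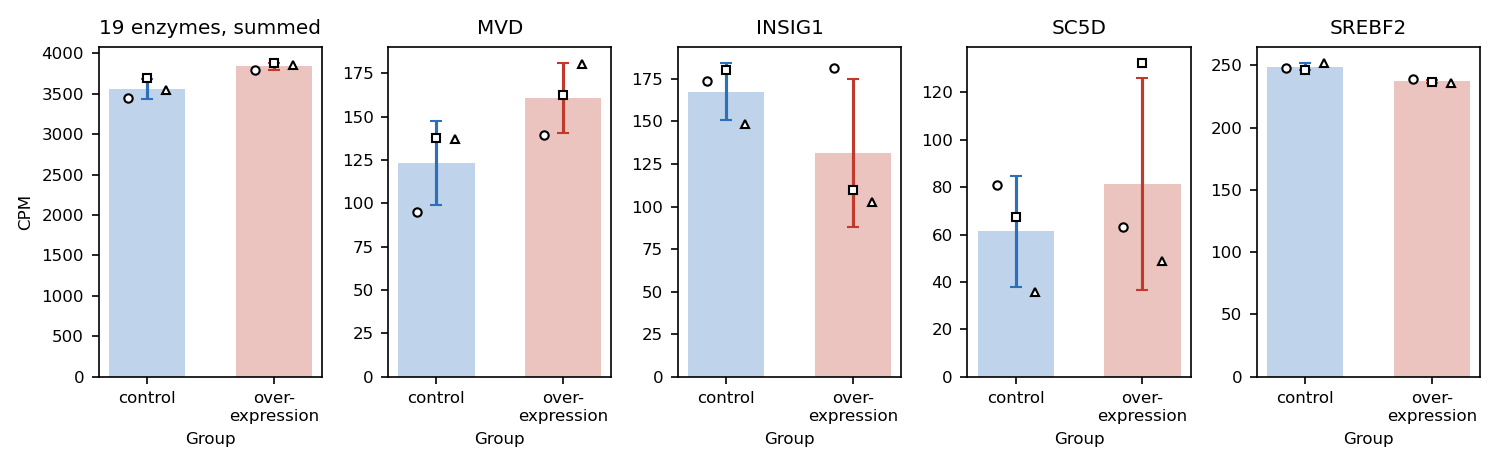
CPM of the 19 enzymes summed and of MVD, INSIG1, SC5D and SREBF2 by group (bars, mean; error bars, SD; n = 3; circle, square and triangle, replicates 1 to 3). The enzyme sum, MVD and SREBF2 do not overlap between groups, while INSIG1 and SC5D do.

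Promoters are shown for SREBF2, for INSIG1 with the most negative log2 fold change, and for MVD and IDI1, the synthesis enzymes with the lowest unadjusted p-values. RefSeq sequences (GRCh38.p14) from 250 bases before to 50 bases after the annotated start were available for 27 of the 34 genes, using the first listed start of each gene. Capitals mark, on either strand, the sterol regulatory element core TCACNCCAC, the CCAAT box bound by NF-Y and the GC box GGGCGG bound by SP1. The windows are chr22:41832855-41833154 (plus strand), chr7:155297628-155297927 (plus strand), chr16:88663042-88663341 (minus strand) and chr10:1056655-1056954 (minus strand, a start outside the extent of IDI1 in the expression table).
SREBF2: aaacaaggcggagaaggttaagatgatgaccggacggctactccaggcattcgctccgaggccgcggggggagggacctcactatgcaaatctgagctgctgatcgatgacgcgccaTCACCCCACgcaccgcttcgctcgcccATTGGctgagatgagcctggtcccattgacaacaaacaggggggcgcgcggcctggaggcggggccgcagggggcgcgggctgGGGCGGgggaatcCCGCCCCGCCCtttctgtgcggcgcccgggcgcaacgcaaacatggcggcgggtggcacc
INSIG1: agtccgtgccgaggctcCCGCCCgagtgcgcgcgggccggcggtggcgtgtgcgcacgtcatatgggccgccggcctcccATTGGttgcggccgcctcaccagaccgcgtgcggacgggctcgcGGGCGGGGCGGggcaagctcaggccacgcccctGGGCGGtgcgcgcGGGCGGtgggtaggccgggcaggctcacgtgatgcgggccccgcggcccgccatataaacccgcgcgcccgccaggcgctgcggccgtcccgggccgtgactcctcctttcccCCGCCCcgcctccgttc
MVD: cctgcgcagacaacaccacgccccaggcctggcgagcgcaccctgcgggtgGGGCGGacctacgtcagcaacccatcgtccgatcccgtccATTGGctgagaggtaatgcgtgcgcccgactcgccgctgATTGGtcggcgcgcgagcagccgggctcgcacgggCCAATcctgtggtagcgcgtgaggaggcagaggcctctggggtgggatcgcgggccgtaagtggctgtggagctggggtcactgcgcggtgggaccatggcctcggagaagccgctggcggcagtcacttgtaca
IDI1: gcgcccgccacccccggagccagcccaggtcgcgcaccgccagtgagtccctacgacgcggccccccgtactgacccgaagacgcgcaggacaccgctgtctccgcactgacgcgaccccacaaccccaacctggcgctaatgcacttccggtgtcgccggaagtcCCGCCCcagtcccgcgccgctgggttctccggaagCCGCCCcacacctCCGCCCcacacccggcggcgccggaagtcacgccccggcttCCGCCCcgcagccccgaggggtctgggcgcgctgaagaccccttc

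The sterol element core was found in SREBF2 alone among the 27 genes, or 3.7%, beginning 133 bases before the start, and in 1.15% of the promoters of 27305 genes. Only exact matches within 1 window per gene were counted, so elements with other letters or outside the window would be missed. A CCAAT box was found in 19 of the 27, or 70.4%, and in 35.7% of all promoters. A GC box was found in 24 of the 27, or 88.9%, and in 44.6% of all promoters. Both boxes together occurred in 17 of the 27, or 63.0%, against 15.1% of all promoters. All promoters here were not limited to genes detected in Huh7 cells, and the members were not compared with the tested genes alone. SREBF2, INSIG1 and MVD held both, and IDI1 held GC boxes and no CCAAT box in this window. These matches describe letters only and are not measured binding sites.

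Uptake and transport genes stayed near control, with a median log2 fold change of 0.013 over 6 genes. SCARB1, the HDL receptor (ENSG00000073060, chromosome 12 at 124776856 to 124882668, minus strand), had the highest level per kilobase of this group. It was at 256, 261 and 248 CPM with overexpression and at 257, 249 and 256 CPM with the control plasmid. These values interleaved, and the 95% interval of its log2 fold change was -0.17 to 0.18. NPC1, which exports cholesterol from lysosomes (ENSG00000141458, chromosome 18 at 23506184 to 23586898, minus strand), was at 97.8, 115 and 114 CPM against 123, 119 and 122 CPM. All overexpression values lay below all control values, with a log2 fold change of -0.15 (standard error 0.09, edgeR adjusted p 0.797), which was -0.082 without overexpression replicate 1. Its luminal partner NPC2 was at 0.019, and control values of NPC2 alone ran from 38.8 to 57.6 CPM. NPC1L1 (-0.12), a sterol uptake protein of gut and human liver, STARD4 (0.034), a cytosolic sterol carrier, and MYLIP (0.081), a sterol-induced ubiquitin ligase that lowers lipoprotein uptake, had overlapping groups.

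Of the 4 tested storage and efflux genes, 3 were placed higher and 1 lower, with a median log2 fold change of 0.15. SOAT2, the hepatocyte and enterocyte cholesterol acyltransferase (ENSG00000167780, chromosome 12 at 53103518 to 53124538, plus strand), was at 35.0, 35.9 and 34.3 CPM with overexpression. Its control values were 24.6, 30.9 and 30.5 CPM. The groups did not overlap, and control replicate 1 was again the lowest. The log2 fold change came to 0.29 (standard error 0.12, unadjusted p 0.0393, edgeR adjusted p 0.797), and 0.19 without control replicate 1. SOAT1, the more widely expressed acyltransferase, had the highest level per kilobase of this group, at 132, 124 and 124 CPM against 119, 125 and 130.0 CPM, and the groups overlapped.

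LCAT, the secreted enzyme that esterifies cholesterol on HDL (ENSG00000213398, chromosome 16 at 67939750 to 67944131, minus strand), was at 10.7, 13.1 and 10.5 CPM with overexpression and at 9.97, 9.20 and 8.56 CPM in controls. The groups did not overlap, and the log2 fold change came to 0.31 (standard error 0.15, unadjusted p 0.0794, edgeR adjusted p 0.797). It was 0.20 without overexpression replicate 2, and 12.8% of its exon bases are shared with SLC12A4 on the same strand. ABCA1, the exporter that loads HDL, was at 161, 187 and 200.2 CPM against 204, 199 and 185 CPM, with overlapping groups and a log2 fold change of -0.10 that was -0.018 without overexpression replicate 1.

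In a wider list of 33 sterol and isoprenoid genes outside the set, 30 were tested and 0 passed the adjusted threshold by edgeR's quasi-likelihood test. 15 were placed higher and 15 lower, with a median log2 fold change of -0.0023. 1 gene had an unadjusted p under 0.05: NCEH1, a cholesteryl ester hydrolase, at 45.2, 42.0 and 45.2 CPM with overexpression and 56.0, 50.8 and 55.0 CPM in controls, with a log2 fold change of -0.29 (standard error 0.09, edgeR adjusted p 0.797). TMEM97, a sterol-regulated membrane protein, had the most negative log2 fold change of the list, -0.38 (standard error 0.22, edgeR adjusted p 0.797). Its values were 186, 102 and 107 CPM with overexpression and 153, 187 and 176 CPM in controls, so overexpression replicate 1 lay among the controls and replicates 2 and 3 below them all. For INSIG1, replicates 2 and 3 also lay below every control, and replicate 1 lay above. INSIG1 and TMEM97 were each named as the most negative of their list, and a shared pattern was not tested. Overexpression replicate 3 was the highest library for 6 of the 33 members and the lowest for 4. SREBF1, the paralog of SREBF2 that favours fatty acid synthesis, was at 0.023, and the oxysterol receptor genes NR1H2 and NR1H3 were at 0.041 and 0.017, all with overlapping groups.

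PPARA, the receptor gene followed by the study, was at 24.2, 7.42 and 11.4 CPM with overexpression and at 6.37, 5.45 and 7.32 CPM in controls (log2 fold change 1.17, edgeR adjusted p 0.797). The highest library of PPARA, overexpression replicate 1, was the highest for 9 of the 33 members, or 27.3%, against 19.1% of all tested genes. It was also the highest for 30.0% of the tested genes of the wider list. For 4 members, or 12.1%, it was the lowest library, against 20.2% of all tested genes. A relation between PPARA and the members was not tested.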

How the data were processed

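Total RNA of 6 Huh7 libraries was sequenced. The authors deposited 1 table with whole-number read counts, not normalized, and FPKM values per gene and library. The submitters' processing notes name TopHat2 2.0.9 and hg38. The counting tool, strand handling and annotation release are not given in the sources used here. Groups and replicate numbers came from the sample titles. GENCODE 29 held 98.5% of the table's gene IDs and gave strands, exon lengths and overlaps.

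Genes with too few reads were removed with filterByExpr (minimum count 10), leaving 15055. edgeR 4.0.16 in R 4.3.3 was run with TMM normalization and a two-sided quasi-likelihood test with the group as the only term, and p-values were adjusted by Benjamini-Hochberg over all 15055 genes. CPM values used TMM library sizes. Each log2 fold change was divided by the square root of its F statistic to give the standard error, from which the 95% interval followed. Single genes were also compared by exact permutation of log2(CPM + 0.5). The biological coefficient of variation was 16.1%. Library totals of 11130902 to 14138262 counts set the counting precision. No molecular identifiers are described for these reads. Replicates of a group differed by 10.1 to 20.9 chi-square units per degree of freedom over genes, so none was a copy of another.

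Alternatives covered the normalization (RLE, upper quartile), the tool (DESeq2 1.42.0), the filter (none, or a mean of 50 counts or more), the deposited FPKM values on the log2(FPKM + 1) scale (limma 3.58.1 with trend, keeping genes that reached 1 FPKM in 3 libraries or more), a block for the replicate number, and fits without each library in turn. The members and gene lists were chosen with earlier results of these data known, so no list was tested. Values by library were given for members with an unadjusted p under 0.05 or groups that did not overlap, for the most abundant and the most changed member of each role, and for further members added after their values were seen. In the wider list the rule named genes with an unadjusted p under 0.05 or the most extreme values, and not every one of these is reported here. Promoter sequences came from RefSeq, with the first listed start of each gene.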

Additional observations from a re-analysis of the deposited data

How the results depend on the processing

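No member was called higher (0) or lower (0) under any alternative, 0 to 4 members had an unadjusted p under 0.05, and the lowest adjusted p of any member was 0.391, for SQLE without control replicate 1. Of 429 member values under alternatives, 30 changed sign, in 15 members. With all 6 libraries kept, HMGCS1 turned to 0.0098 under upper-quartile normalization, 0.0021 without a count filter and 0.018 under limma on FPKM, SCAP turned to 0.0044 under upper-quartile normalization and 0.013 under limma on FPKM, and MVK turned to -0.0010 under RLE normalization. Leaving out one library at a time moved HMGCS1 between -0.052 and 0.036, MVK between -0.14 and 0.17, PMVK between -0.058 and 0.34, FDPS between -0.0033 and 0.13, FDFT1 between -0.039 and 0.043, LSS between -0.00025 and 0.088, CYP51A1 between -0.0070 and 0.10, NSDHL between -0.058 and 0.096, SC5D between -0.13 and 0.68, DHCR7 between -0.0052 and 0.20, SCAP between -0.047 and 0.019, NPC2 between -0.12 and 0.15, STARD4 between -0.013 and 0.068, SOAT1 between -0.0094 and 0.053 and SCARB1 between -0.012 and 0.028. Among members that kept their sign, values moved toward 0 by over 1.5 times without control replicate 1 for ACAT2 (0.021) and EBP (0.077), without control replicate 2 for TM7SF2 (-0.020) and MYLIP (0.023), and without overexpression replicate 1 for NPC1L1 (-0.032), ABCA1 (-0.018), HSD17B7 (0.044) and LBR (0.013). MVD, SOAT2, LCAT, SQLE, NPC1, INSIG1 and INSIG2 have their values beside their results. In those fits the median of all members ran from 0.019 to 0.075, that of mevalonate genes from -0.0033 to 0.18, that of squalene and lanosterol genes from 0.021 to 0.088, that of lanosterol-to-cholesterol genes from 0.058 to 0.15 and that of sensing genes from -0.053 to -0.026. The median of the 19 enzymes ran from 0.023 to 0.15, that of uptake and transport genes from -0.036 to 0.021 and that of storage and efflux genes from 0.091 to 0.17. The lowest of these last 3 medians came without control replicate 1, and the cause was not tested. The enzymes with a positive log2 fold change numbered 16 to 18 of 19 with all libraries kept. The median of all genes moved to 0.018 under upper-quartile normalization and to 0.025 under limma on FPKM, where 57.1% of all genes and 18 of the 19 enzymes were positive.

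With a replicate block, 25 of 33 members were positive and 2 had an unadjusted p under 0.05 in edgeR: MVD, higher (0.39, p 0.00899), and INSIG1, lower (-0.39, p 0.0473). IDI1 (0.22, p 0.0743) and SOAT2 (0.29, p 0.0565) were no longer under 0.05 with the block. Same-numbered libraries did not deviate together (correlations across genes of -0.0292, -0.0120 and -0.0308). Whether libraries with the same number were prepared together is not stated, and these correlations cannot decide it. The 95% intervals give the differences that 3 against 3 libraries leave possible.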
